A study of Mus musculus with 19 samples.

Results

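The *Serpina3* genes of mouse chromosome 12 were followed through CD11b+ cells of the brain. The 8 members were taken from the cluster, as *Serpina3c*, *Serpina3f*, *Serpina3g*, *Serpina3h*, *Serpina3i*, *Serpina3k*, *Serpina3m* and *Serpina3n*. GENCODE gave them 9 of the 56980 gene IDs in the count table, since *Serpina3h* has 2. They were chosen by gene symbol, but selected on the measured counts of these libraries too, since the LPS and genotype differences were already in view. Their levels and differences are therefore given as a description and support nothing. The mice were 19 males of 3 to 4 months. They were *PARK7*/DJ-1 KO mice, which carry the gene trap allele *Park7* Gt(XE726)Byg in a line crossed back to C57BL/6NCrl, or wildtype littermates. Each mouse received either LPS (4 µg/g body weight) or the saline vehicle PBS into the peritoneum and was sacrificed after 6 h. The groups were KO_LPS (n = 5), KO_PBS (n = 5), WT_LPS (n = 5) and WT_PBS (n = 4), and each library came from a different mouse. CD11b, an integrin on the surface of microglia and further myeloid cells, served as the handle by which cells were enriched magnetically (MACS) from brains without olfactory bulb and cerebellum.

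Serpins are protease inhibitors that act once. The target protease cuts a reactive loop of the serpin, and the pair is then locked in an inactive complex. Humans have a single *SERPINA3* gene for the acute phase protein alpha-1-antichymotrypsin, whereas the mouse has a cluster of duplicated copies that differ mainly in the reactive loop. *Serpina3n*, a secreted inhibitor of granzyme B and cathepsin G, is known in brain as a gene of reactive astrocytes and of oligodendrocytes in disease. *Serpina3g*, also called Spi2A, stays inside the cell, inhibits cysteine cathepsins and is known as a target of interferon-gamma in macrophages. *Serpina3k* is known mainly from the liver. Acute phase genes are switched on by interleukin-6 and related cytokines through STAT3, a factor that binds GAS elements in DNA.

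To show what lies upstream of the members that were read out, the 250 bases before the annotated start of the canonical transcript were taken from the GRCm39 genome, the build of the files. The letters TTCNNNGAA of a GAS element, the ISRE core GAAANNGAA, the kappa B letters GGGANNTTC, the C/EBP letters TTNNGNAAT and TATAAA were searched on both strands. In the following 5 sequences, written from 5′ to 3′ on the strand of the gene, capitals mark the bases of these matches.
*Serpina3f* (chr12:104180522-104180771, plus strand): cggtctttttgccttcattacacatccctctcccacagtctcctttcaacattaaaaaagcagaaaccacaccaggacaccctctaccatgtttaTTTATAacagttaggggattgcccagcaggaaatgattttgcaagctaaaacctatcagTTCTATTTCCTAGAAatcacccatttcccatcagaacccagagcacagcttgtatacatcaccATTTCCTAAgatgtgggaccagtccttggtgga
*Serpina3g* (chr12:104202136-104202385, plus strand): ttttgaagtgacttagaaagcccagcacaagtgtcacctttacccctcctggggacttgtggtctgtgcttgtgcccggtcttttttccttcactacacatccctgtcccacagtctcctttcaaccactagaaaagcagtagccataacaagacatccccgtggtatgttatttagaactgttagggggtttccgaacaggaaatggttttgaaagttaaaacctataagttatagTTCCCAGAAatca
*Serpina3h* (chr12:104213856-104214105, plus strand): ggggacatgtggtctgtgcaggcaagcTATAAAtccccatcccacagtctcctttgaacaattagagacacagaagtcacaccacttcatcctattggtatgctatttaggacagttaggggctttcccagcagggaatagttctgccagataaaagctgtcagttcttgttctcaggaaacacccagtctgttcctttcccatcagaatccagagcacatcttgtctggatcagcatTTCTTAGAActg
*Serpina3i* (chr12:104229113-104229362, plus strand): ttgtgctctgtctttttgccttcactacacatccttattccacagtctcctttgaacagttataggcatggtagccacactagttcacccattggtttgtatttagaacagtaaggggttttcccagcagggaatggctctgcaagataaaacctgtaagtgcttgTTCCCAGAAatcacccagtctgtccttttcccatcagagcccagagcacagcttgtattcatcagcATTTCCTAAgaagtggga
*Serpina3n* (chr12:104372560-104372809, plus strand): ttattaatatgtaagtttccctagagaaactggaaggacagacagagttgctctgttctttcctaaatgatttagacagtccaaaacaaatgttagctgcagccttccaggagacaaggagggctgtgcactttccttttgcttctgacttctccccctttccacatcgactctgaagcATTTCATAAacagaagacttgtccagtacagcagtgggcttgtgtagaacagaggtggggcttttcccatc
In *Serpina3g* the capitals are a GAS match alone. In *Serpina3h*, shown for its lncRNA ID, they are a TATAAA match and then a GAS match, and in *Serpina3i* a GAS match and then a C/EBP match on the other strand. *Serpina3f* has, from left to right, a TATAAA match on the other strand, an ISRE core on the other strand that overlaps the GAS match by its last bases, the GAS match, and a C/EBP match on the other strand. *Serpina3n* has a C/EBP match on the other strand and no GAS match. Of the windows not shown, *Serpina3c* has a TATAAA and a C/EBP match, *Serpina3m* a C/EBP match and *Serpina3k* none, and no member has the kappa B letters. GAS letters thus stand in the windows of 4 of the 8 members and C/EBP letters in 5. Among the windows of 21631 protein-coding genes, 7.73% held GAS letters, 7.54% the ISRE core, 3.46% the kappa B letters, 10.5% the C/EBP letters and 12% TATAAA, each on either strand. The GAS match began 90 bases before the start in *Serpina3f*, 84 in *Serpina3i*, 13 in *Serpina3g* and 12 in *Serpina3h*. Its surroundings were compared in the first 3, since too few bases of the window follow the match in *Serpina3h*. By the printed bases around it, the *Serpina3h* match lies where *Serpina3i* has its C/EBP match, not where the other 3 have their GAS letters. Over 33 bases from 20 before to 4 after the match, 28 were identical between *Serpina3f* and *Serpina3g*, 28 between *Serpina3g* and *Serpina3i* and 26 between *Serpina3f* and *Serpina3i*. A match of letters is not a bound site, and the absence of letters in this window says nothing of elements elsewhere.

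Because the members are copies of each other, it was asked how far a read can tell them apart. The transcripts of each gene were cut into all distinct windows of 75 bases, the length of 1 read, and looked up on the same strand in the transcripts of every other gene. *Serpina3n* (ENSMUSG00000021091, chr12:104372810-104380597, plus strand) was almost fully distinct, with 99.3% of its 4358 windows found in no other gene. *Serpina3i* (ENSMUSG00000079014, chr12:104229363-104238677) reached 97.5% and *Serpina3f* (ENSMUSG00000066363, chr12:104180772-104187388) 94.7%. The share found in genes at another place was 5.88% in *Serpina3g*, 5.26% in *Serpina3f*, 3.56% in *Serpina3h* and 2.55% in *Serpina3i*, mostly in other members. No stretch of 150 bases, both reads of a pair laid end to end, occurred in a gene at another place for any member. With up to 2 mismatches allowed in 75 bases, the shares rose to 20.9% in *Serpina3f*, 17.8% in *Serpina3g*, 13.3% in *Serpina3i*, 13.0% in *Serpina3h* and 3.90% in *Serpina3n*.

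*Serpina3g* (ENSMUSG00000041481, chr12:104202386-104208203) shares 1170 exon bases, 43.7% of its exons, with the predicted gene Gm56487, which lies inside it on the same strand. Gm56487 had 0 counts in all 19 libraries, and 66.2% of the *Serpina3g* windows were found in no other gene. *Serpina3h* is annotated both as a lncRNA (ENSMUSG00000121484, chr12:104214042-104220679) and as a pseudogene (ENSMUSG00000041449) whose 1226 exon bases all lie in exons of the lncRNA. The pseudogene ID had 0 counts in all 19 libraries, and the values given for *Serpina3h* are those of the lncRNA ID. How the counting treated reads that fit several places or several genes is not given in the sources used here, and the part of shared bases in the levels of *Serpina3g* and *Serpina3h* was not tested.

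**Figure D1:**
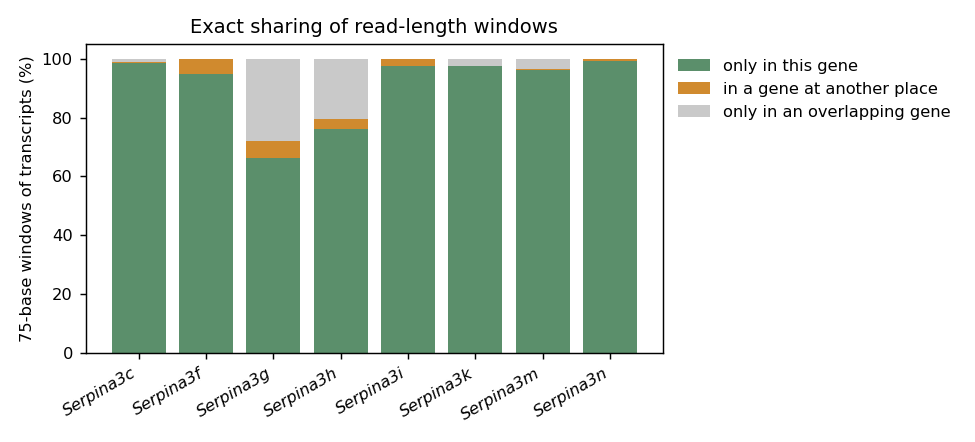
Share of the distinct 75-base windows of each member's transcripts (vertical axis, percent) that occur only in that gene, in a gene at another place, or only in a gene that overlaps it on the same strand, by exact match. *Serpina3g* and *Serpina3h*, at 66.2% and 76.0%, have the lowest shares of windows of their own, and most of their shared windows lie in overlapping genes.

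Library totals ranged from 11936364 to 22788884 counts, so that 3 counts, taken as the smallest signal, correspond to 0.138 to 0.256 CPM (counts scaled to a common library total, with TMM factors that correct for differences in composition). Reads are not independent molecules, so such limits and all intervals on counts cover counting error only. *Park7*, the gene trapped in the KO, had 262 to 533 counts in the 9 wildtype and 9 to 90 in the 10 KO libraries. All 8 microglia markers were present in all groups, with a summed level of 17300 to 28100 CPM in PBS and 5600 to 10200 CPM in LPS libraries. The libraries also held RNA of other brain cells. Choroid plexus markers summed to 217 to 15200 CPM, astrocyte markers to 436 to 5210 CPM, oligodendrocyte markers to 522 to 11290 CPM and endothelial markers to 73.0 to 913 CPM. In such bulk samples, fewer cells of a type and less RNA per cell cannot be told apart.

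After PBS the cluster was nearly silent. All members together had 260 counts in the 9 PBS libraries, of which 215 (82.7%) fell on *Serpina3n*. After LPS they had 18923 counts in 10 libraries, of which *Serpina3n* took 73.8%, *Serpina3f* 18.9%, *Serpina3g* 5.13%, *Serpina3i* 1.44%, *Serpina3h* 0.454%, *Serpina3m* 0.196% and *Serpina3c* 0.0581%. *Serpina3k* had 0 counts in all 19 libraries, as had *Serpina3a*, *Serpina3b* and *Serpina3j* of the same cluster. A count of 0 in a library allows a level of up to 0.138 to 0.256 CPM. Per kilobase of merged exons, the level in WT_LPS was 25.5 ± 14.1 CPM/kb (SD, n = 5) for *Serpina3n*, 13.7 ± 9.76 for *Serpina3f*, 3.64 ± 2.21 for *Serpina3g*, 0.331 ± 0.170 for *Serpina3i*, 0.163 ± 0.104 for *Serpina3h*, 0.0625 ± 0.0373 for *Serpina3m* and 0.0152 ± 0.0283 for *Serpina3c*. Within WT_LPS the ranges of neighbours in this order overlapped, except for *Serpina3g* (2.07 to 7.47 CPM/kb) above *Serpina3i* (0.147 to 0.578 CPM/kb). Over the 10 LPS libraries of both genotypes the ranges of all neighbours overlapped. Within single libraries, each of the first 5 members was above the next in 10 of 10 LPS libraries, and *Serpina3m* was above *Serpina3c* in 8 of 10. If no count of *Serpina3g* came from the bases it shares with Gm56487, which was not tested, its level in WT_LPS would be 6.47 CPM/kb.

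Of the 8 members, 5 had enough counts for the test across all genes (*Serpina3f*, *Serpina3g*, *Serpina3h*, *Serpina3i* and *Serpina3n*). The filter keeps genes that are high enough in the libraries of 1 group, and of these 5 only *Serpina3n* also passed it on the PBS libraries alone, so the other 4 entered through their LPS libraries. *Serpina3c*, *Serpina3k* and *Serpina3m* did not enter. The 5 were higher after LPS in both genotypes by the call rule used here for LPS (|log2FC| ≥ 0.5 and a p-value, adjusted after Benjamini-Hochberg over 18739 genes in the quasi-likelihood test of edgeR, under 0.05). By that rule 18.4% of all genes tested were higher in wildtype and 20.1% in KO. The CPM of LPS and PBS libraries did not overlap for any of the 5 in either genotype, as held, in this direction, for 20.8% of all genes in wildtype and 16.2% in KO. Wildtype mice gave the 5 a median log2FC of 6.07 where all genes had -0.06, and KO mice 5.90 where all genes had -0.01. Both genotypes are set against their own PBS libraries.

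**Figure D2:**
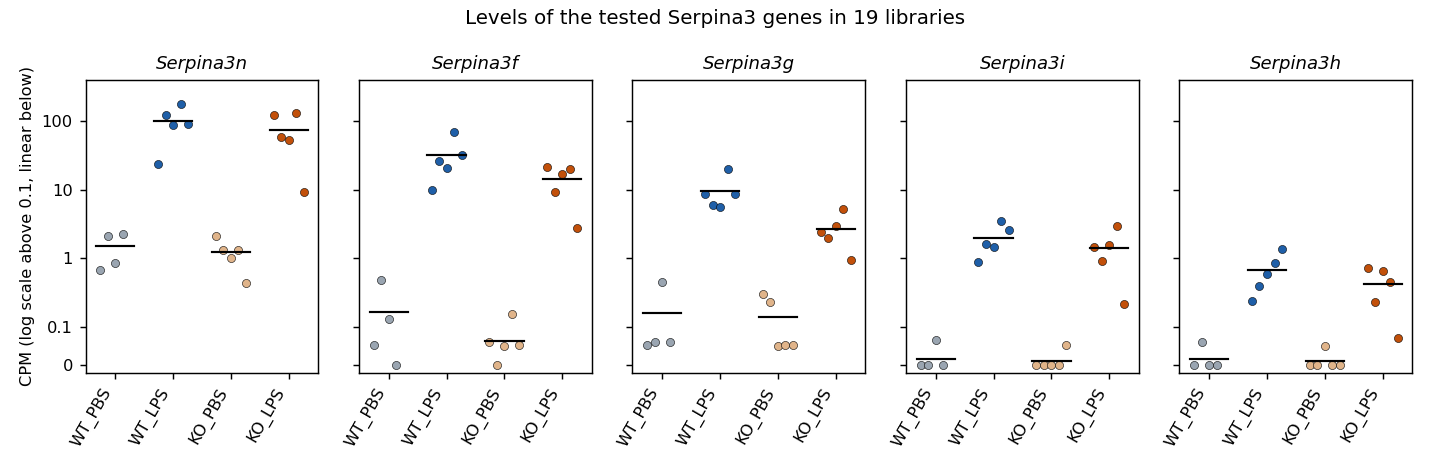
CPM of the 5 tested members (vertical axis, logarithmic above 0.1 and linear below) in each of the 19 libraries, by group, where points are mice and lines are group means. In all 5 panels every LPS library lies above every PBS library of its genotype, and *Serpina3n* is the only member whose PBS libraries all reach 0.432 CPM or more.

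*Serpina3n*, the secreted inhibitor, was the most abundant member. It stood at 23.7, 122, 87.7, 175 and 90.3 CPM in the 5 WT_LPS libraries and at 121, 58.7, 53.1, 129 and 9.37 CPM in the 5 KO_LPS libraries. In WT_PBS it was 0.677, 2.12, 0.853 and 2.29 CPM, and in KO_PBS 2.15, 1.34, 1.02, 1.31 and 0.432 CPM. LPS and PBS libraries were thus far apart, while the 2 genotypes overlapped widely in either condition. LPS raised it 67.1-fold in wildtype (log2FC 6.07, SE 0.763) and 59.6-fold in KO (log2FC 5.90, SE 0.687). Among all 18739 genes it ranked 52 by log2FC in wildtype and 53 in KO. The spread after LPS was large, since the highest library exceeded the lowest 7.37-fold in WT_LPS and 13.8-fold in KO_LPS.

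The low *Serpina3n* libraries also had the lowest sums of astrocyte, endothelial, choroid plexus and neuron markers, but not of oligodendrocyte markers. KO_LPS 5 (9.37 CPM) had the lowest summed levels of all 10 LPS libraries for astrocyte markers (436 CPM over 8 genes), endothelial markers (73.0 CPM over 5 genes) and choroid plexus markers (217 CPM over 3 genes). WT_LPS 1 (23.7 CPM) came next in all 3, with 828, 154 and 1390 CPM. In the other 8 LPS libraries the sums were 968 to 5208 CPM for astrocyte, 306 to 747 CPM for endothelial and 4136 to 11310 CPM for choroid plexus markers, and *Serpina3n* was 53.1 to 175 CPM. The 4 neuron markers summed to 16.9 CPM in KO_LPS 5, 26.1 CPM in WT_LPS 1 and 30.3 to 93.7 CPM in the other 8. The 6 oligodendrocyte markers summed to 1695 CPM in KO_LPS 5, above KO_LPS 2 (1466 CPM), KO_LPS 4 (1121 CPM) and WT_LPS 4 (1093 CPM), and to 522 CPM in WT_LPS 1, the lowest of the 10. No marker of these 5 lists was at 0 in all libraries of a group. Over 329 genes that were more than 8-fold higher after LPS in both genotypes, members left out, the median difference to the PBS libraries was 3.80 (log2) in KO_LPS 5 and 3.37 in WT_LPS 1, and 3.31 to 4.30 in the other 8. KO_LPS 5 and WT_LPS 1 were also the lowest of their groups for *Serpina3f* (2.74 and 9.89 CPM), *Serpina3i* (0.216 and 0.894 CPM) and *Serpina3h* (0.0721 and 0.238 CPM). *Serpina3g* was lowest in KO_LPS 5 (0.937 CPM) among KO_LPS, but WT_LPS 1 (8.52 CPM) was not the lowest of WT_LPS. The part of other brain cells in the levels of *Serpina3n* and these members was not tested.

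**Figure D3:**
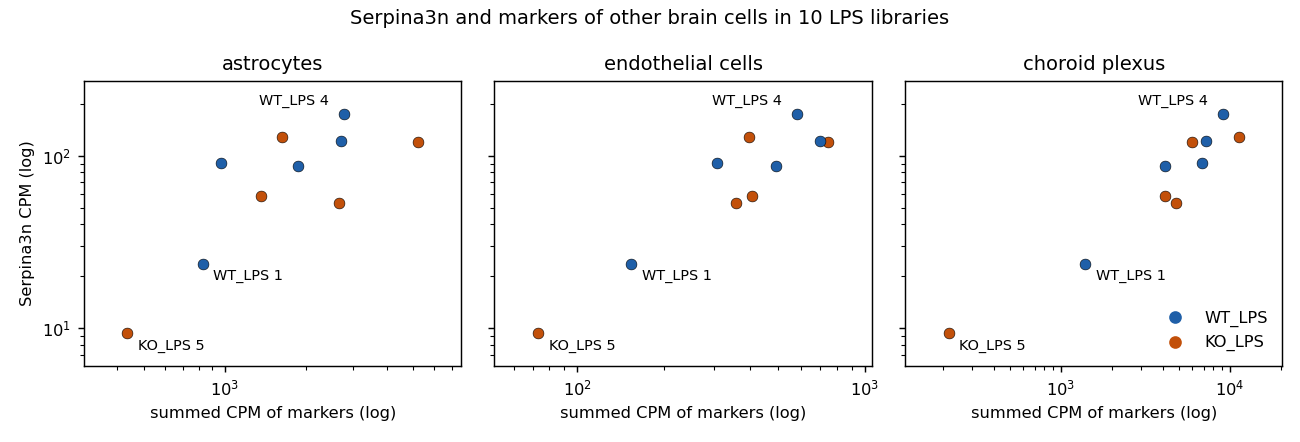
*Serpina3n* level (vertical axis, CPM, log scale) in each of the 10 LPS libraries against the summed CPM of astrocyte, endothelial or choroid plexus markers in the same library (horizontal axes, log scale), coloured by genotype. KO_LPS 5 and WT_LPS 1 are lowest on both axes in all 3 panels, and the other 8 libraries lie between 53.1 and 175 CPM.

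The genes whose levels followed *Serpina3n* most closely were sought among 15711 named genes with a mean of at least 1 CPM, by Pearson's r of the log2 CPM deviations from the own group mean over 19 libraries. Among the closest were *Dpysl3* (r = 0.975), *Cd200* (0.951), *Cyp1b1* (0.950) and *Ifi44* (0.940). As the highest of 15711 values these are a description, and the libraries share differences in depth and cell makeup. *Cd200*, a surface glycoprotein that restrains myeloid cells, was itself higher after LPS, with a log2FC of 2.66 in wildtype.

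*Serpina3g*, the intracellular inhibitor, differed most between genotypes after LPS. It stood at 8.52, 5.98, 5.54, 20 and 8.69 CPM in WT_LPS and at 2.42, 2.00, 2.93, 5.25 and 0.937 CPM in KO_LPS. The highest KO library lay below the lowest wildtype library, so that the groups did not overlap. PBS levels were at the limit of detection, with 1, 1, 7 and 1 counts in WT_PBS and 5, 5, 1, 1 and 1 counts in KO_PBS. LPS raised it 61.2-fold in wildtype (log2FC 5.94, SE 0.724) and 18.9-fold in KO (log2FC 4.24, SE 0.640). Without WT_PBS 3, which held 7 of the 10 WT_PBS counts, the wildtype log2FC was 7.22. Between genotypes after LPS it was -1.84 (SE 0.497), from 9.74 ± 5.91 CPM (SD, n = 5) for wildtype mice to 2.71 ± 1.60 CPM (SD, n = 5) for KO mice.

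*Serpina3f* is the second most abundant member. It stood at 9.89, 26.3, 21.0, 69.5 and 31.8 CPM in WT_LPS and at 21.2, 9.19, 17.0, 20.2 and 2.74 CPM in KO_LPS, while the 9 PBS libraries held 0 to 8 counts. Here 3 of the 5 KO libraries lay within the wildtype range. LPS raised it by a log2FC of 7.53 (SE 0.850) in wildtype, rank 12 of all genes, and of 7.64 (SE 0.831) in KO, rank 14, the largest of the 5 tested members in both. It was 8.91 in wildtype without WT_PBS 2, which held 8 of the 11 WT_PBS counts, and 8.23 in KO without KO_PBS 4, which held 3 of 6. The log2FC between genotypes after LPS was -1.17 (SE 0.525), with 31.7 ± 22.6 CPM (SD, n = 5) for wildtype mice against 14.1 ± 7.89 CPM (SD, n = 5) for KO mice. The lowest *Serpina3f* libraries, KO_LPS 5 and WT_LPS 1, were those with the low astrocyte, endothelial and choroid plexus marker sums given above. The part of such cells in this difference was not tested.

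*Serpina3i*, *Serpina3h*, *Serpina3m* and *Serpina3c* were low throughout. *Serpina3i* had 15 to 54 counts in WT_LPS and 3 to 53 in KO_LPS, that is 2.01 ± 1.03 CPM (SD, n = 5) and 1.42 ± 1.01 CPM (SD, n = 5). *Serpina3h* had 4 to 16 and 1 to 13 counts, or 0.688 ± 0.440 CPM (SD, n = 5) and 0.427 ± 0.279 CPM (SD, n = 5). Each had a single count in all PBS libraries of a genotype, so fitted fold changes depend on the prior count of the fit. The ratio of summed counts in wildtype was 131 (95% counting interval 23.2 to 5210) for *Serpina3i* and 43.4 (7.43 to 1750) for *Serpina3h*. *Serpina3m* (ENSMUSG00000079012), not tested across genes, had 20 counts over WT_LPS and 17 over KO_LPS and none after PBS. *Serpina3c* (ENSMUSG00000066361) had 12 counts in 5 of 19 libraries.

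**Figure D4:**
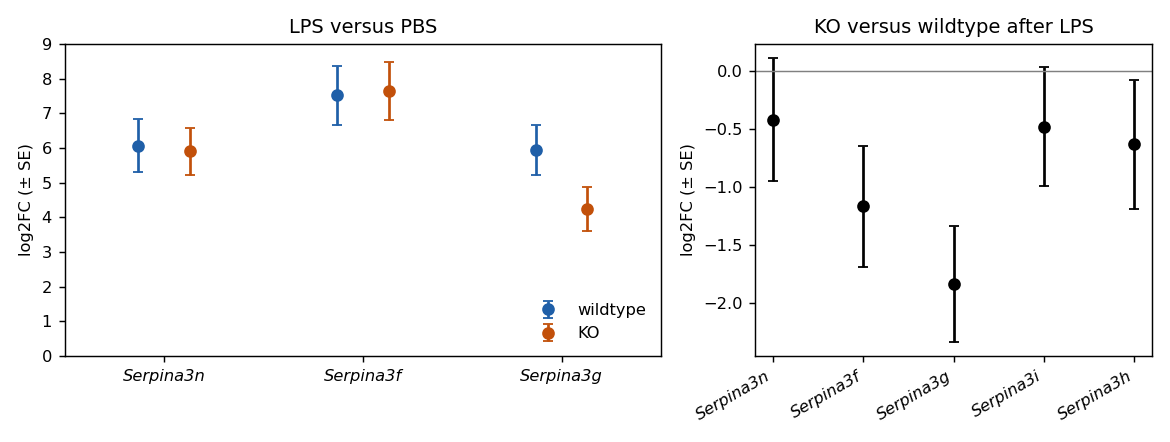
Left, log2FC after LPS (vertical axis, ± SE) of *Serpina3n*, *Serpina3f* and *Serpina3g* in wildtype and KO mice. Right, log2FC of KO versus wildtype after LPS (± SE) of the 5 tested members. All 5 points on the right lie below 0, from -0.42 for *Serpina3n* to -1.84 for *Serpina3g*.

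The comparison of genotypes asks whether *PARK7*/DJ-1 deficiency alters these levels. After LPS, 2 of the 5 tested members, *Serpina3g* and *Serpina3f*, were lower in KO by the call rule for genotype (|log2FC| ≥ 0.5 with p under 0.05 before adjustment), where 0.763% of all genes were lower. By p-value they ranked 13 and 340 of the 18739 genes. The *Serpina3f* call was lost, at nearly the same log2FC, with only the 2 LPS groups in the fit (-1.16) and with the replicate number as a block (-1.15). Non-overlap in this direction, seen for *Serpina3g* alone, held for 0.160% of all genes. The other 3 had log2FC values of -0.42 (SE 0.532) for *Serpina3n*, -0.48 (SE 0.510) for *Serpina3i* and -0.63 (SE 0.556) for *Serpina3h*. Leaving out 1 mouse moved them to between -0.73 and -0.12, -0.93 and -0.18, and -0.90 and -0.26, with WT_LPS 4 (*Serpina3n*, *Serpina3i*) or WT_LPS 5 (*Serpina3h*) left out at the end nearest 0. None of the 5 passed after adjustment over all genes (adjusted p = 1.00 in edgeR for each). After PBS, 0 of the 5 passed, and 0.576% of all genes were lower by this rule. The log2FC of *Serpina3n* was then -0.25 (SE 0.723). A call in 1 condition does not show that the genotypes respond differently, and the difference of the LPS response was tested itself. It passed for 0 of the 5 members and for 0% of all genes in edgeR, with 180 genes and 0 members at an unadjusted p-value under 0.05. For *Serpina3g* this difference was -1.70 (SE 1.02), for *Serpina3n* -0.17 (SE 0.908) and for *Serpina3f* 0.12 (SE 0.784). The SE, derived from the F statistic, are rough here. That of *Serpina3f* is below the SE of its LPS response in either genotype (0.850 and 0.831) and so understates the uncertainty. Single mice moved or turned these differences. *Serpina3g* reached -2.98 without WT_PBS 3, where its unadjusted p-value in edgeR was under 0.05 (adjusted p = 1.00). *Serpina3f* ranged from -1.25 without WT_PBS 2 to 0.71 without KO_PBS 4, and *Serpina3n* from -0.48 without KO_LPS 4 to 0.13 without WT_LPS 4.

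Single libraries weighed on these values. Without WT_LPS 4, the highest wildtype library, the *Serpina3f* log2FC between genotypes was -0.66 and its call was lost, as it was without KO_LPS 2, KO_LPS 5 or WT_LPS 5. *Serpina3g* kept its call without any of the 19 mice, with -2.22 to -1.40. Without KO_LPS 5 and WT_LPS 1 together, an alternative added after the data were seen, the log2FC was -1.67 for *Serpina3g*, -1.14 for *Serpina3f* and -0.39 for *Serpina3n*, and the same 2 members passed.

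Beside *Serpina3g*, markers of infiltrating cells overlapped between the genotypes after LPS. The 4 monocyte markers summed to 170 to 302 CPM in WT_LPS and 98.4 to 226 CPM in KO_LPS, with medians of 223 and 124 CPM. All 4 had a log2FC of KO versus wildtype below 0, from -0.66 to -0.28. The 9 T and NK cell markers summed to 2.73 to 9.42 CPM and 0.793 to 4.58 CPM, with medians of 3.22 and 2.28 CPM. Only 3 of these 9 passed the filter, of which *Ncr1*, a receptor of NK cells, was lower in KO (log2FC -1.63). This call is by the rule on unadjusted p-values, by which 0.763% of all genes were lower. *Cd3g*, at 0 in KO_LPS, was at 0.195 CPM in 1 WT_LPS library and at 0 in the other 4. Neutrophil markers summed to 139 to 410 CPM and 85.8 to 391 CPM, with medians of 214 and 262 CPM. None of the monocyte or neutrophil markers passed between genotypes. *Ifng*, the gene for interferon-gamma, had 10, 1, 19, 25 and 8 counts in WT_LPS and 0, 1, 1, 5 and 0 counts in KO_LPS, and was too low for the test across genes. The KO library with most *Ifng* counts, KO_LPS 4, was also the KO library with most *Serpina3g*, and so was WT_LPS 4 among the wildtype libraries. In contrast, WT_LPS 3, with 19 *Ifng* counts, had the lowest *Serpina3g* of WT_LPS (5.54 CPM). WT_LPS 2 had 1 *Ifng* count and 5.98 CPM of *Serpina3g*. The part of these cells in the *Serpina3g* level was not tested.

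The balance of *Serpina3g* and *Serpina3f* within a library does not depend on library scaling. In WT_LPS 2 to 5 there were 22.7, 26.4, 28.8 and 27.3 *Serpina3g* counts per 100 *Serpina3f* counts. WT_LPS 1 stood apart with 86.1 (exact 95% interval 68.4 to 108). In KO_LPS 1 to 5 there were 11.4, 21.7, 17.3, 26.0 and 34.2, the last on 13 *Serpina3g* counts. Apart from WT_LPS 1, the genotypes thus overlapped in this balance, although *Serpina3g* itself did not overlap. In WT_LPS 1 *Serpina3g* was 19.6% of all member counts and *Serpina3n* 54.7%, against 3.83% to 7.42% and 64.8% to 77.8% in the other WT_LPS libraries.

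**Figure D5:**
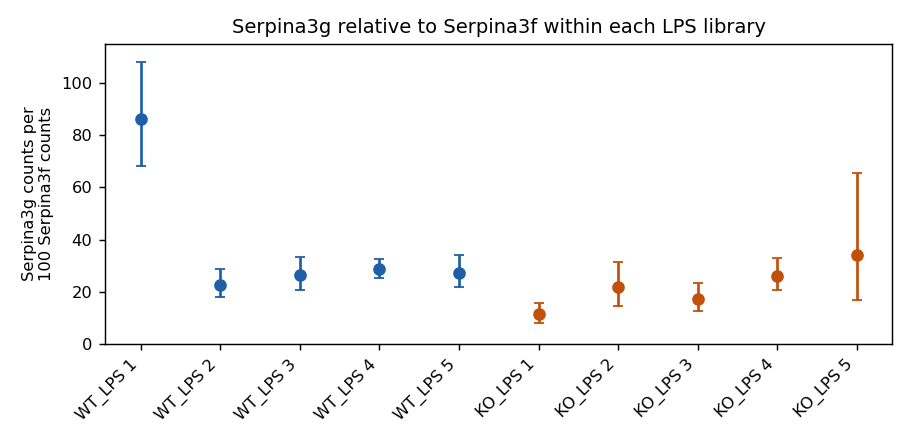
*Serpina3g* counts per 100 *Serpina3f* counts (vertical axis) in each of the 10 LPS libraries, with exact 95% intervals that cover counting error only. WT_LPS 1 lies at 86.1, and the other 9 libraries lie between 11.4 and 34.2.

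The genes closest to *Serpina3g* by the same measure were *H2-T22* (r = 0.761), *Dnajc10* (0.760), *Igtp* (0.759), *Ifi47* (0.743) and *Anxa4* (0.740). *Igtp* and *Ifi47* are GTPases known to be induced by interferons, and their log2FC after LPS in wildtype was 2.06 and 4.11. For *Serpina3f* they were *Plscr2* (r = 0.902), *Zc2hc1a* (0.900), *Stap2* (0.898), *Rgs12* (0.883) and *Kit* (0.876). *Serpina3i*, with *Gtf2ird1* (0.936), *Rnf150* (0.924), *Nhsl2* (0.902), *Ampd3* (0.896) and *Pdlim5* (0.888), and *Serpina3h*, with *Sema3d* (0.874), *Lrrtm2* (0.850), *Dgkg* (0.849), *Myh10* (0.843) and *Dapk1* (0.842), had 2 counts each over the 9 PBS libraries. With 17 counts for *Serpina3f* and 23 for *Serpina3g* there, the r values of all 4 members rest on few counts after PBS.

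The proteases and pathways around the cluster were given by lists chosen with earlier results of these data known. Their counts stand beside 18.4% of all genes called higher and 17.4% called lower after LPS in wildtype, and 20.1% and 19% in KO. Of 14 proteases that these serpins act on or meet, 11 were tested, and LPS raised 5 and lowered 1 of them in wildtype mice (6 and 1 in KO mice). Their median log2FC in wildtype was 0.56, against -0.06 over all genes. *Gzmb*, granzyme B, the target of *Serpina3n*, rose from 0.216 ± 0.171 CPM (SD, n = 4) to 4.13 ± 2.75 CPM (SD, n = 5), a log2FC of 4.24, followed by *Gzma* (2.19) and *Ctsc*, the activator of granzymes (1.31). *Ctsg*, cathepsin G, was at 0.128 CPM in WT_PBS and 0.126 CPM in WT_LPS and was not tested. Of the cysteine cathepsins, the class that *Serpina3g* inhibits, *Ctsc* rose (log2FC 1.31 in wildtype and 1.32 in KO), as did *Ctsl* (0.81 in wildtype). *Ctsh* fell (log2FC -1.17 in wildtype and -1.02 in KO). *Ctsb*, at 2340 CPM in WT_PBS, had a log2FC of 0.41 and did not pass in wildtype, but passed in KO with 0.53. *Ctss* (-0.20) and *Ctsk* (-0.13) did not pass in either genotype.

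Of 23 acute phase, interleukin-6 and STAT3 genes, 20 were tested, and 18 were higher and 2 lower in either genotype, where all genes gave 18.4% and 17.4% in wildtype and 20.1% and 19% in KO. Their median log2FC was 3.11 for wildtype and 2.91 for KO mice. The largest were the serum amyloid gene *Saa3* (9.91), *Orm1* (7.39) and *Steap4* (7.33). *Orm1* had 0 counts in all WT_PBS libraries and 1.23 CPM in WT_LPS, so that its value depends on the prior count of the fit. *Il6*, *Osm* and *Stat3* rose by 2.94, 2.29 and 1.72 on the log2 scale in wildtype, and the 2 lower genes were the receptor chains *Il6ra* (-0.67) and *Il6st* (-0.68). Of 22 genes of interferon-gamma signalling, 20 were tested, with 15 higher in wildtype and 14 in KO, led by *Cxcl10* (6.84), *Gbp2* (4.88) and *Nos2* (4.72). Between genotypes after LPS, by the rule on unadjusted p-values, 0 of the 20 acute phase genes passed. Of the 20 interferon-gamma genes 1 was lower in KO, *Ciita*, the master regulator of MHC class II (-0.84). By this rule 0.763% of all genes were lower and 0.544% higher in KO after LPS. The median log2FC of the 20 interferon-gamma genes was then -0.28, against 0.02 over all genes.

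None of the 16 other clade A serpin genes of chromosome 12, *Serpina1a* to *Serpina1f* among them, had enough counts to be tested, and together they reached at most 1.28 CPM in any library. Of 15 intracellular and other serpins, 14 were tested, of which LPS raised 3 and lowered 3 in wildtype mice and 3 and 4 in KO mice. These counts are near the shares of all genes, of which 18.4% were higher and 17.4% lower in wildtype and 20.1% and 19% in KO. The median log2FC of the 14 in wildtype was -0.17. *Serpinb2*, the inhibitor of plasminogen activators, was higher (3.28), as was the complement inhibitor *Serping1* (1.84), and *Serpinf1* was lower (-1.80). The 4 hepatocyte markers, of the tissue where acute phase serpins are mainly made, summed to at most 0.538 CPM in any LPS library.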

How the data were processed

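Total RNA of MACS-isolated CD11b+ brain cells from 19 mice was sequenced as stranded paired reads of 75 bases after rRNA depletion. The authors trimmed reads with Cutadapt (0.17.4 per the submitters' processing notes), aligned them to GRCm39 with STAR 2.7.9a and deposited raw counts per Ensembl gene, untouched by normalization; they tested with DESeq2. The handling of reads that fit several genes is not given in the sources used here. Gene names came from GENCODE M39, which named 56236 of 56980 IDs.

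Counts were tested with edgeR 4.0.16 in R 4.3.3 (quasi-likelihood, TMM, 1 fit over the 4 groups, filterByExpr with a minimum of 10 counts and a total of 15, 18739 genes, Benjamini-Hochberg adjustment). Calls for LPS needed an adjusted p under 0.05 and |log2FC| of at least 0.5, those for genotype an unadjusted p under 0.05 and the same |log2FC|, and those for the difference of responses an adjusted p under 0.05. The prior count for log2 CPM was 2, whereas the fitted log2FC values used the default prior count of edgeR. The SE was derived from the F statistic. Intervals on counts are exact at 95%. Limits of detection use 3 counts. The script was tested on simulated data with 200 changed genes. No 2 libraries of a group agreed within sampling noise.

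Members and lists were chosen with earlier results of these data known. Named were all members, *Park7*, the 5 genes most like each tested member, the 3 list genes with the largest |log2FC| past the threshold in wildtype, and list genes with a role stated beside a member; some of these are not reported here. *Cd200*, *Igtp* and *Ifi47* were picked for remark among the genes most like a member, and *Ciita*, *Il6ra*, *Il6st*, *Ncr1*, *Cd3g*, *Ctsh*, *Ctss* and *Ctsk* from lists, after their values were seen. Alternatives covered the filter, size factors, DESeq2 1.42.0, the groups fitted, a replicate block, rRNA and mitochondrial genes, the call rule, summed members and each mouse left out.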

Additional observations from a re-analysis of the deposited data

Results flagged for a closer look

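Among 20 sets of mice (the 5 tested members in 4 groups), 6 held a library whose gap to the nearest other, relative to the range of its group, exceeded Dixon's 95% critical value. A chance rate of about 1 in 20 would hold for normally distributed values. Low counts do not follow this, so the 6 cannot be set against that rate. *Serpina3g* stood at 20 CPM in WT_LPS 4, against at most 8.69 CPM in the other WT_LPS libraries. It also stood at 0.459 CPM in WT_PBS 3, on 7 counts, where the other 3 WT_PBS libraries had 1 count each. The other 4 rest on a single count in a group otherwise at 0, where the ratio is always 1. They are *Serpina3h* at 0.0605 CPM in WT_PBS 2 and 0.0508 CPM in KO_PBS 3, and *Serpina3i* at 0.0656 CPM in WT_PBS 3 and 0.0539 CPM in KO_PBS 5. WT_PBS 3 bears on the difference of the *Serpina3g* response between genotypes, which was -1.70 (log2) with all mice and -2.98 without this mouse.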

How the results depend on the processing

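The 5 tested members were called after LPS in both genotypes under every alternative that tested all 5, leaving out each mouse included. With only the 2 compared groups in the fit, fewer members passed the filter, and 4 were called in wildtype and 3 in KO. With no filter, *Serpina3m* was called as well. Asking for 10 counts or more in each library left no member and gives no value. After LPS, the 2 genotype calls became 1 with only the 2 groups in the fit, 1 with the replicate block and 0 when the call rule asked for an adjusted p; the cause was not tested. With 1 call left, the call lost was *Serpina3f*. Leaving out 1 mouse gave 1 to 2 calls. Of the log2FC values of members under alternatives, 626 kept direction and call, 8 lost the call and 29 changed sign. Deviations of same-numbered mice correlated by -0.573 to 0.576. Between LPS and PBS mice of a genotype the mean was 0.325 in wildtype and 0.254 in KO. Between the genotypes it was -0.102 after LPS and -0.00594 after PBS. Whether same-numbered mice of a genotype share a batch was not tested. With the replicate block *Serpina3g* had a log2FC of 0.0213 after PBS (KO versus wildtype), against -0.14 without it. The other sign changes came from leaving out 1 mouse, of an LPS or a PBS group. For KO versus wildtype after PBS the ranges were -1.87 to 0.0823 for *Serpina3f*, -0.57 to 1.15 for *Serpina3g*, -1.59 to 1.28 for *Serpina3i*, -0.518 to 0.0479 for *Serpina3n* and -1.58 to 1.27 for *Serpina3h*. For the difference of the LPS response they were -1.25 to 0.705 for *Serpina3f*, -1.76 to 1.11 for *Serpina3i*, -0.479 to 0.132 for *Serpina3n* and -1.9 to 0.947 for *Serpina3h*. With all members summed as 1 gene, the log2FC after LPS was 6.29 in wildtype and 5.98 in KO, and -0.63 between genotypes after LPS, where it was not called.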
